A study of Caenorhabditis elegans with 2 samples.

Results

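The genes described here are 34 genes of lipid synthesis, desaturation, elongation and lipolysis in C. elegans, among 19973 protein-coding genes on the nuclear chromosomes. They were taken by name: 8 genes of fatty acid and triglyceride synthesis and its regulation, 7 fatty acid desaturases, 9 elongases, 7 lipases and 3 genes of fatty acid transport and oxidation. All 34 were found in the annotation. The other 19939 protein-coding genes, taken by the same rule, are the background throughout.

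Binding of the transcription factor MXL-2 was measured by chromatin immunoprecipitation and sequencing (ChIP-seq) in whole L4 larvae, in 2 biological replicates that form 1 group. The worms were of strain RW12316, which carries the allele st12316, a CRISPR insertion that puts the tags TY1, EGFP and 3xFLAG on mxl-2 at its own locus. Larvae were synchronised by starvation at the L1 stage after bleaching and were 48 h old. The precipitation used an antibody to GFP, while the labels enter mxl-2 as the antibody, and both replicates carry the tag. A possible control experiment named in the labels was not analysed here, so no value below was compared here with an untagged strain, and no test between groups exists. In whole animals, binding in more cells and stronger binding per cell cannot be told apart.

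MXL-2, the worm's Mlx-like protein, has a helix-loop-helix and a leucine zipper and pairs with the Mondo-like protein MML-1. In mammals, Mlx with its Mondo partners MondoA and ChREBP senses sugar phosphates, and ChREBP drives genes of glycolysis and fatty acid synthesis in the liver, ATP citrate lyase among them. Such proteins bind the E-box CACGTG, and the carbohydrate response element of mammalian ChREBP targets is a pair of E-box-like hexamers 5 bp apart. In C. elegans, fatty acids are built mainly in the intestine, desaturated and elongated there into polyunsaturated fatty acids, stored as triglyceride and released by cytosolic and lysosomal lipases.

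The deposited data are lists of candidate binding sites. Each candidate has a summit, a signal, which is its enrichment on the peak caller's scale, and an irreproducible discovery rate (IDR). A low IDR means that the candidate ranked consistently high in the 2 sets compared. A replicate's list was made from that replicate alone, so its IDR does not compare the 2 replicates. A ranked list holds every candidate, and a thresholded list holds candidates at an IDR of 0.01 or lower. Overlapping lines were joined into regions, which gave 968 regions for the whole experiment, 448 for replicate 1 and 454 for replicate 2. A region was given to a gene when its summit lay in the gene body or within 2000 bp of the 5' end, and negative distances lie before that end. Signal is set separately for each list, so a whole-experiment value is not the mean of the replicates' values. The files hold no read counts and the depth is unknown.

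Sequence at the bound lipid genes is shown first, because the E-box and its spacing recur in the results. The strongest member region, within the coding sequence of acly-1, and the strongest desaturase region, in an intron of fat-4, each held a pair of E-box hexamers 5 bp apart near the summit. The pair is in capitals, with 50 bp to either side of the summit of the region, on the plus strand of ce11, at X:1479747-1479847 for acly-1 and at IV:9799801-9799901 for fat-4.
acly-1: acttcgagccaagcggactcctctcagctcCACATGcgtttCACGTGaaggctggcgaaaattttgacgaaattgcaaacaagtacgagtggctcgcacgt
fat-4: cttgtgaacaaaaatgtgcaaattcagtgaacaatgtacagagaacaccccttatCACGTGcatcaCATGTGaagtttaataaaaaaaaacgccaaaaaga

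A further 4 member regions held a single CACGTG within 100 bp of the summit. These sites are given with 10 bp of context on each side and the hexamer in capitals, to show the bases around each core. They lie at X:1478222-1478247 (acly-1, upstream region), V:17659314-17659339 (dgat-2), V:9790116-9790141 (lipl-2) and III:6421290-6421315 (atgl-1), all on the plus strand.
acly-1 upstream: ataggtgataCACGTGtagctaacag
dgat-2: aattgaagttCACGTGaatctgaaca
lipl-2: gtttagatgtCACGTGgtgtctatgg
atgl-1: cttttgacacCACGTGacgagtcacg

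For contrast, the weaker region in an intron of fat-4, upstream of fat-3, held no CACGTG within 500 bp of its summit and no hexamer of the CANNTG type in the stretch printed (IV:9801593-9801693, plus strand).
fat-3/fat-4: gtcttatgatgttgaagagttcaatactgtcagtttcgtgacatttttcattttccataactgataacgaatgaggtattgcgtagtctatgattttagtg

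MXL-2 regions lay at 8 of the 34 lipid genes in the whole-experiment list: acly-1, dgat-2 and pod-2 of the synthesis genes, fat-1, fat-3 and fat-4 of the desaturases, and atgl-1 and lipl-2 of the lipases. This was 23.5% of the members (exact 95% interval 10.7 to 41.2%), beside 4.91% of the other genes (979 of 19939). No elongase (0 of 9) and no gene of transport and oxidation (0 of 3) had a region. At the share of the other genes, neither count sets these groups apart. The shares were 37.5% of the synthesis genes (3 of 8), 42.9% of the desaturases (3 of 7) and 28.6% of the lipases (2 of 7). Intervals cover counting error only, and since the genes were chosen with earlier results known, the counts carry no test.

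The list of each replicate gave fewer members, and the background fell with it. In replicate 1, 6 members had a region, 17.6% (6.76 to 34.5%), beside 2.30% of the other genes. These were acly-1, atgl-1, dgat-2, fat-3, fat-4 and lipl-2. In replicate 2, 4 members had one, 11.8% (3.30 to 27.5%), beside 2.37%. The 4 were acly-1, dgat-2, fat-4 and lipl-2, all of which were also in the replicate 1 list, so these 4 were called in both replicates, beside 1.54% of the other genes. A region in the list of either replicate was found at 6 members, beside 3.12%. The conservative list of the whole experiment gave 7 members, beside 5.04%, and lacked fat-3. The share of members lay above that of the other genes in every list.

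**Figure D1:**
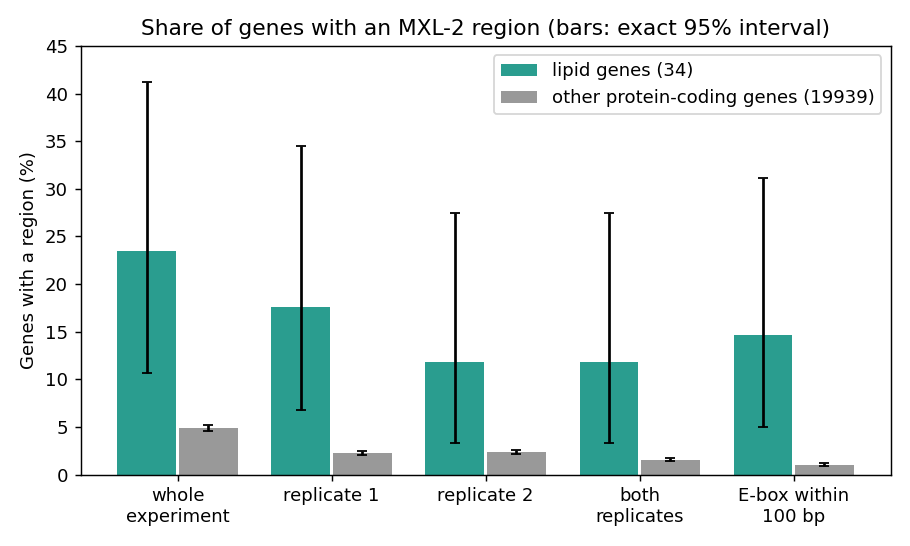
Bars give the percentage of the 34 lipid genes and of the 19939 other protein-coding genes with an MXL-2 region in the whole-experiment list, each replicate's list and both, and with an E-box CACGTG within 100 bp of a whole-experiment summit; error bars are exact 95% intervals. The lipid gene bars stand at 23.5%, 17.6%, 11.8%, 11.8% and 14.7%, each above its background bar, with wide intervals. For an E-box within 50 bp, the main window, which is not plotted, the shares were 8.82% and 0.712%.

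The lipid genes were somewhat larger than the background and had more space before them. Their median length was 2503 bp, beside 2027 bp for the other genes, and the median gap to the upstream gene was 1620 bp, beside 936 bp. The 8 members with a region had a median length of 3132 bp and a median gap of 1584 bp, and the 26 without one had 2011 bp and 1620 bp. Among the other genes, those with a region were also longer, 2691 bp against 2004 bp. The part of gene size in the member count was not tested.

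Among the synthesis genes, acly-1, one of the 2 worm genes for ATP citrate lyase, which makes cytosolic acetyl-CoA for fatty acid synthesis, carried the strongest signal of all members. Its region within the gene (X:1479713-1479902, a coding exon, summit 255 bp after the 5' end) had a whole-experiment signal of 415, rank 28 of 968. The signal was 164 in replicate 1 and 245 in replicate 2 (204 ± 57.6, SD, n = 2), so replicate 2 was the higher. Besides the CACGTG of the printed pair, another stood 48 bp from this summit, its last base just beyond the printed stretch. A separate upstream region lay in intergenic sequence at −1387 bp from the 5' end (X:1478065-1478224), with a signal of 283 at rank 46. There replicate 1 was the higher, with 154 against 126 in replicate 2 (139.9 ± 20.2, SD, n = 2). Both acly-1 regions were in both replicates' lists. Only acly-1 and fat-4 among the members had 2 or more regions (2 of 34, 5.88%), beside 0.527% of the other genes.

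dgat-2, which encodes a diacylglycerol acyltransferase of the last step of triglyceride synthesis, had a region at −897 bp from its 5' end (V:17659276-17659535). Its whole-experiment signal was 146, rank 130, with 61.3 in replicate 1 and 84.7 in replicate 2 (73.0 ± 16.5, SD, n = 2). The summit lay in intergenic sequence and was far closer, at −21 bp, to the start of the divergent F-box gene fbxa-108, and the CACGTG printed above lies in the 5' UTR of that gene. Which of the 2 genes the region serves was not tested.

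pod-2 encodes acetyl-CoA carboxylase, which makes malonyl-CoA, the building block of fatty acids. Its region lay in an intron 5388 bp after the 5' end (II:1142043-1142302), at −1727 bp from an internal transcript start of pod-2 and −1334 bp from the start of the nested gene W09B6.4. The signal was 69.6 at rank 713, and the candidate in this place had 33.1 in replicate 1 (IDR 0.0314) and 34.4 in replicate 2 (IDR 0.289). The replicate values are close to each other, and the region was in neither replicate's list.

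acly-2, the other ATP citrate lyase gene, had no region. Its strongest candidate, 199 bp after the 5' end (V:13116557-13116816), had a whole-experiment signal of 66 at an IDR of 0.0201, just outside the limit. It had 19.8 in replicate 1 (IDR 0.827) and 39.1 in replicate 2 (IDR 0.0560), the higher value again being that of replicate 2. The candidate also lies in an intron of max-1, another gene.

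The acly-2 candidate shares a sequence with the bound exon of acly-1. Both coding exons hold the same pair, CACATG and CACGTG 5 bp apart, with the centre of CACGTG 248 bp after the 5' end of acly-1 and 163 bp after that of acly-2. Below are 106 bp around each CACGTG with the pair in capitals, from X:1479738-1479843 and V:13116599-13116704 on the plus strand, the strand of both genes.
acly-1 exon: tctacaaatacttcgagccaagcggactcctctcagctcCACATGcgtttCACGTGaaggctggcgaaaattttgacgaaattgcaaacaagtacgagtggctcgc
acly-2 exon: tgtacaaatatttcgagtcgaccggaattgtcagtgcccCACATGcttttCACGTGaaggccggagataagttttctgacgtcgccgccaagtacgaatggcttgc
The stretches were identical at 78 of 106 positions (73.6%) without gaps, and the longest identical run was 14 bp. With the pair in the same place within these stretches, the whole-experiment signal was 415 at acly-1 and 66 at acly-2. The acly-1 region also held a further CACGTG, 48 bp from its summit. acly-2 had only the 1 CACGTG of its pair in its body or within 2000 bp of its 5' end. This pair of sites was compared after the values had been seen.

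The remaining synthesis genes had no region. fasn-1, the fatty acid synthase gene, had its strongest whole-experiment candidate 9884 bp after the 5' end, with a signal of 46.8 (IDR 0.265), and 27.5 in replicate 1 and 24.1 in replicate 2 for the strongest candidate of each. The corresponding whole-experiment signals were 40.0 at sbp-1, which encodes the SREBP homologue that activates lipogenic genes, 34.0 at mdt-15, a Mediator subunit that works with SBP-1, and 44.4 at let-767, which encodes a ketoacyl-CoA reductase. For mdt-15, a region of signal 63.7 lay outside the rule, at −5841 bp from the 5' end.

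Among the desaturases, fat-4, the gene of the last desaturation step on the way to arachidonic and eicosapentaenoic acid, had the strongest region. It lay in an intron 422 bp after the 5' end (IV:9799775-9799888), with a signal of 190.2 at rank 75. The replicates gave 97.7 and 93.7 (95.7 ± 2.80, SD, n = 2), which differ little, although the summit of replicate 1 lay at −45 bp from the whole-experiment summit and that of replicate 2 at +19 bp.

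A weaker region in another intron of fat-4 lies at −1380 bp from the 5' end of fat-3 (IV:9801513-9801772). The 2 genes are neighbours in 1 direction, and fat-3 encodes the desaturase that acts on linoleic acid at the start of long-chain polyunsaturated fatty acid synthesis. The region is counted for both genes. Its summit lies in the body of fat-4 and within 2000 bp of the 5' end of fat-3. It also lies shortly before an internal transcript start of fat-4. Its signal was 75.3 at rank 584, with 47.9 in replicate 1 (IDR 0.00450) and 24.7 in replicate 2 (IDR 0.615). It was in the replicate 1 list, not in the replicate 2 list, and at an IDR of 0.0131 it was left out of the conservative list.

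fat-1, which encodes the omega-3 desaturase, had a region in intergenic sequence at −1266 bp from its 5' end (IV:13314248-13314507). The signal was 70.3 at rank 692, with 31.8 in replicate 1 (IDR 0.0608) and 40.4 in replicate 2 (IDR 0.628), and neither replicate's list held it. The neighbouring fat-2, which makes linoleic acid, had no region by the rule, and a region of signal 53.7 lay between the 2 genes, at −4939 bp from fat-2.

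The stearoyl- and palmitoyl-CoA desaturase genes fat-5, fat-6 and fat-7 had no region. Beside 4.91% of the other genes, 0 of 3 does not set them apart. The strongest whole-experiment candidate was 55.5 at fat-5 (IDR 0.0697) and 33.3 at fat-6 (IDR 0.521). fat-7 was the only member without a candidate in the whole-experiment ranked list, while its strongest candidate in the conservative ranked list had 38.9 (IDR 0.225). Its strongest candidate had 19.6 in replicate 1 and 15.2 in replicate 2, the latter elsewhere, at −916 bp from the 5' end. The desaturase regions thus lay at genes of polyunsaturated fatty acid synthesis, with 3 of the 4 such genes (fat-1 to fat-4) and 0 of the 3 others, a split described after the values were seen. These genes are not separate cases, since the fat-3 region lies within fat-4 and is counted for both. Only fat-4 had a region in both replicates' lists.

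The 9 elongase genes, whose products lengthen fatty acids at the endoplasmic reticulum, had no region in any of the 4 thresholded lists. The shares of the other genes in these lists were 2.30% to 5.04%, so 0 of 9 does not set the elongases apart. Their strongest whole-experiment candidates ranged from 26.4 at elo-4 to 57.9 at elo-1 (IDR 0.121), with a median of 37.9. The median over the 18100 other genes with a candidate was 36.0. In the replicates the elongase medians were 23.4 and 26.9, beside 20.5 and 20.8 over the other genes. elo-5, which makes monomethyl branched-chain fatty acids, had 23.9 in replicate 1 and 34.2 in replicate 2 (IDR 0.147). These 2 candidates lay at different places, 26 bp and 2286 bp after the 5' end. Only elo-8 had CACGTG in its body or within 2000 bp of its 5' end, with 2 sites.

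Among the lipases, lipl-2, a gene of the lysosomal acid lipase family, had a region at −1520 bp from its 5' end (V:9789917-9790176). Its signal was 116 at rank 230, with 60.9 in replicate 1 and 59.2 in replicate 2 (60.0 ± 1.14, SD, n = 2), nearly the same in both. The summit was closer to the divergent zinc finger gene ztf-7, at −340 bp from its start, and the region overlaps the noncoding RNA gene F46B6.15. It was the only member region at a noncoding RNA gene (1 of 9), beside 29.0% of all 968 regions.

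atgl-1, the gene of adipose triglyceride lipase, which starts the breakdown of stored triglyceride, had a region at −1800 bp from its 5' end (III:6421129-6421388). The summit lay in the 3' UTR of C05D11.8, the upstream gene on the same strand. The signal was 91.0 at rank 385, with 62.4 in replicate 1 (IDR 0.000651) and 29.3 in replicate 2 (IDR 0.412), so the replicate 1 list held it and the replicate 2 list did not. The strongest replicate 2 candidate of atgl-1 lay elsewhere, at −148 bp from the 5' end, with 35.5 (IDR 0.859).

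The other lipases had no region. The strongest whole-experiment candidates were 24.8 at lipl-1, 32.6 at lipl-3, 35.4 at lipl-4, 49.1 at lipl-5 (IDR 0.106) and 32.8 at hosl-1, the hormone-sensitive lipase gene. For lipl-4, which is known for extending lifespan when overexpressed, a region of signal 75 at a tRNA gene lay 9572 bp after the 5' end, outside the rule.

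No gene of transport and oxidation had a region, which with 3 genes, beside 4.91% of the other genes, does not set them apart. cpt-1, the carnitine palmitoyltransferase gene that admits fatty acids to mitochondria, came closest to the limit, with a whole-experiment signal of 56.4 at an IDR of 0.0159, 1024 bp after the 5' end. Its strongest candidate in replicate 1 lay elsewhere, 4969 bp after the 5' end, at 37.1 (IDR 0.0216), and that in replicate 2 was 26.2 (IDR 0.501). A region of signal 66.2 lay at −2481 bp from cpt-1, just outside the rule. acs-2, an acyl-CoA synthetase gene of mitochondrial oxidation, had 55.1 (IDR 0.0734). lbp-8, which encodes a fatty acid binding protein that carries lysosomal lipid signals, had 37.1 in the whole experiment, at −1719 bp from the 5' end. The strongest candidates of the replicates lay elsewhere, with 30.6 in replicate 1 (1944 bp after the 5' end) and 14.2 in replicate 2 (1741 bp after it).

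**Figure D2:**
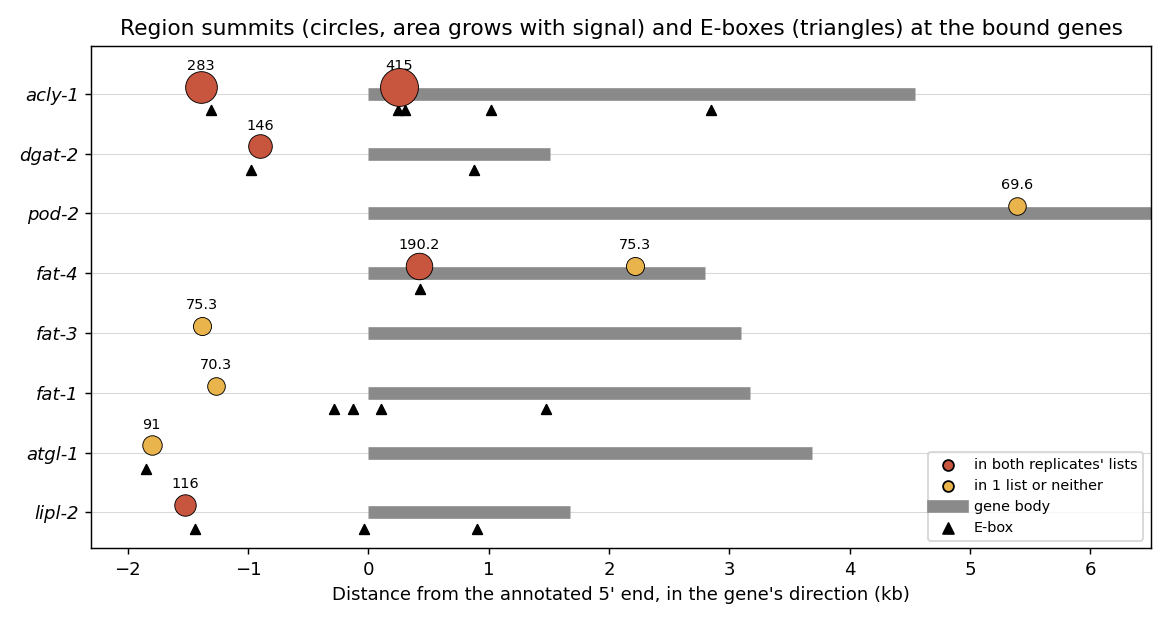
Circles mark region summits at the 8 bound lipid genes by distance from the annotated 5' end in kb, labelled with the whole-experiment signal; grey bars are gene bodies (pod-2 runs on beyond the axis) and triangles are CACGTG sites. Summits lie from −1800 to +5388 bp, and the triangles nearest the 5' ends of fat-1 and lipl-2 have no circle.

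Candidates without regard to the limit covered nearly every gene. A candidate of the whole-experiment ranked list lay at 33 of the 34 members, beside 90.8% of the other genes, and all 34 members had one in each replicate, beside 88.4% in replicate 1 and 87.4% in replicate 2, so the presence of a candidate sets the lipid genes little apart. At an IDR of 0.05 or lower the whole-experiment count was 10 members (29.4%), adding acly-2 and cpt-1, beside 9.96% of the other genes. It was 8 members in replicate 1 (23.5%), beside 3.87%, and 4 in replicate 2 (11.8%), beside 3.86%. Just inside the limit of 0.01 stood pod-2 (0.00461) and fat-1 (0.00622), and just outside it stood cpt-1 (0.0159) and acly-2 (0.0201).

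The strongest candidate per gene had a median signal of 44.4 over the members and 36.0 over the other genes in the whole-experiment list. Over genes without a region the medians were 38.1 and 35.2. In the replicates the medians over all members were 25.8 and 26.2, beside 20.5 and 20.8. Of the 26 members without a region, the 5 with the lowest IDR in either replicate were cpt-1 (0.0216), acly-2 (0.0560), elo-5 (0.147), lbp-8 (0.262) and fasn-1 (0.281).

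**Figure D3:**
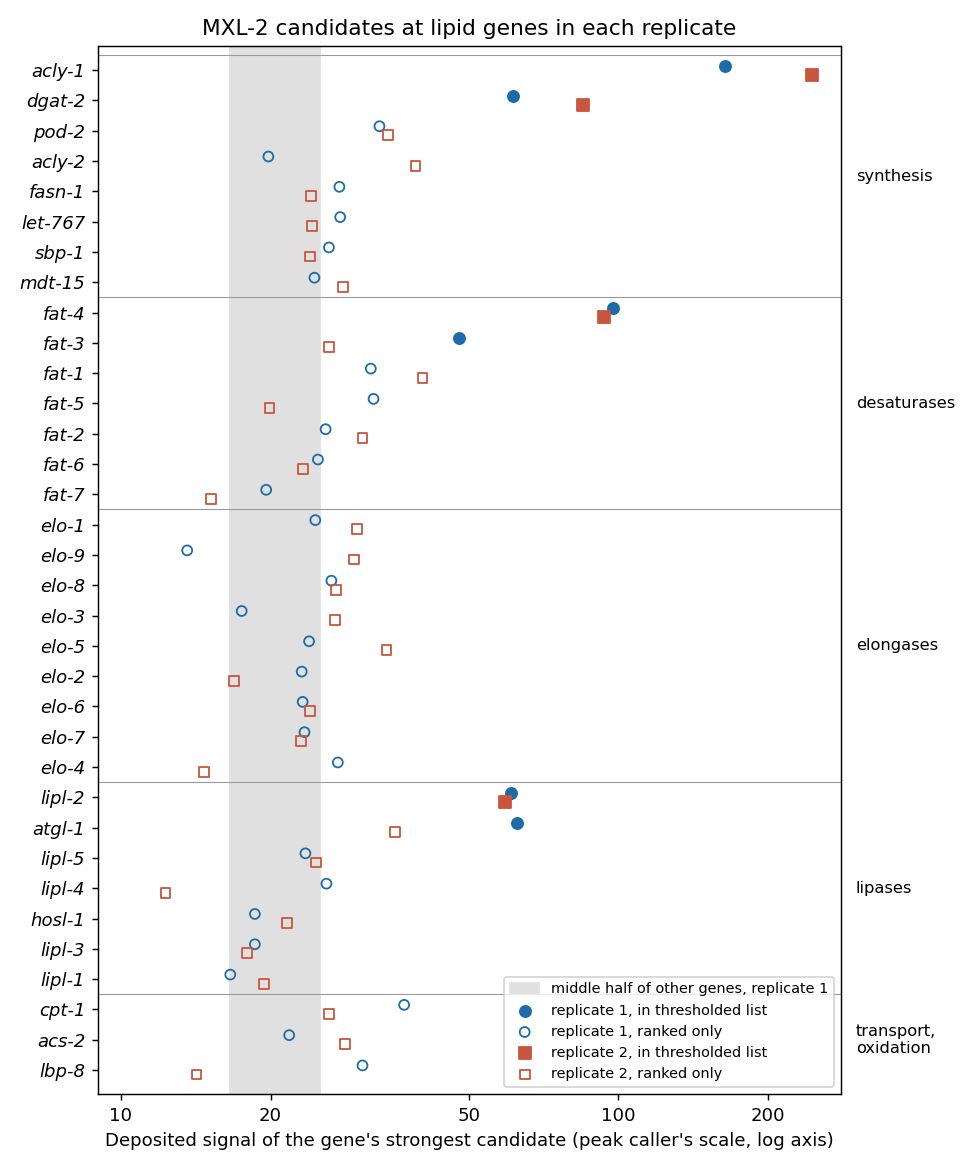
Each row is a lipid gene, grouped by role, with the signal of its strongest candidate in replicate 1 (circles) and replicate 2 (squares) on a log axis; filled symbols mark genes with a region in that replicate's thresholded list, and the grey band is the range between the quartiles of the other genes in replicate 1. acly-1 stands farthest right at 164 and 245, the elongases lie between 13.6 and 34.2, and most open symbols lie in or near the band.

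Agreement between the replicates varied among the 9 member regions. Both replicates' lists held 5 of them (55.6%), 2 stood in 1 list and 2 in neither, whereas of all 968 regions 289 were in both (29.9%), 279 in 1 and 400 in neither. The median whole-experiment signal was 116 over the member regions and 82.1 over all regions. Over the 291 pairs of regions shared by the replicates' lists, the ratio of replicate 1 to replicate 2 had a median of 0.985, with 5% of pairs below 0.664 and 5% above 1.49. The acly-1 region within the gene had a ratio of 0.668, near the lower of these bounds, and the upstream one had 1.23. The ratio was 2.13 at atgl-1 and 1.94 at the fat-3/fat-4 region, which were in the replicate 1 list alone. These ratios cannot be read against the bounds, which come from regions that passed in both replicates. For fat-4 (1.04), lipl-2 (1.03) and dgat-2 (0.724), which were in both lists, the ratio lay within the bounds. It was 0.963 at pod-2 and 0.787 at fat-1, which were in neither list.

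**Figure D4:**
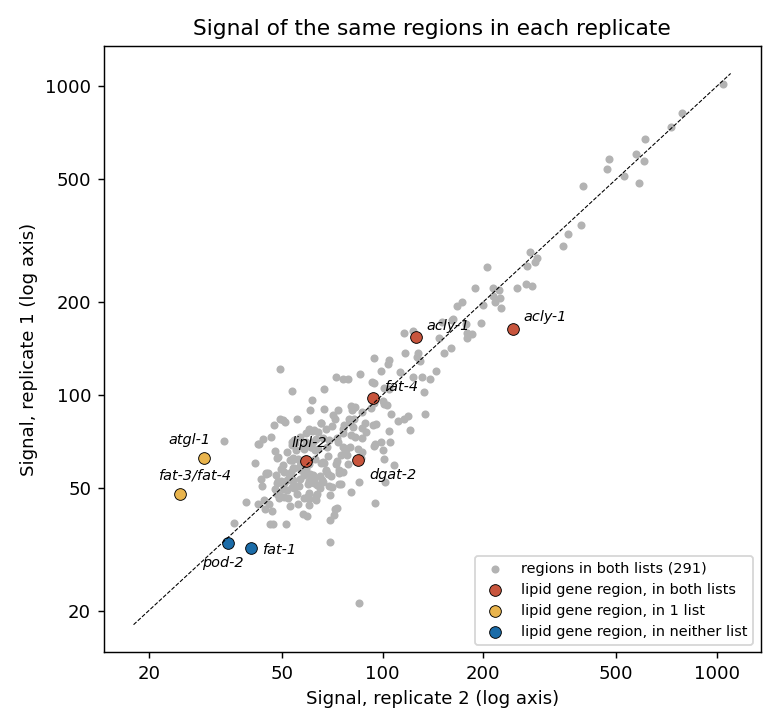
The signal in replicate 1 is plotted against that in replicate 2, on log axes, for the 291 region pairs shared by the replicates' lists (grey) and for the 9 lipid gene regions, coloured by how many lists held them; the dashed line is equality. atgl-1 and fat-3/fat-4 lie above the line, with ratios of 2.13 and 1.94, and pod-2 and fat-1 lie at the low end in neither list.

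The stronger member regions had an E-box within 100 bp of the summit, an order that did not hold within 50 bp. Within 50 bp, the main window, CACGTG stood in 3 of the 9 member regions (33.3%), beside 16.2% of all 968 regions. The share was 2.17% of 1936 windows placed 500 bp to either side. In the wider window of 100 bp, the 6 strongest of the 9 had CACGTG (66.7%), beside 22.4% of all regions and 3.56% of the flanking windows. The 3 weakest, at fat-3/fat-4, fat-1 and pod-2, had none within 500 bp. In genes, a region with CACGTG within 100 bp was found at 5 members, acly-1, atgl-1, dgat-2, fat-4 and lipl-2 (14.7%), beside 1.02% of the other genes. Within 50 bp it was found at 3 members, acly-1, atgl-1 and fat-4 (8.82%, 1.86 to 23.7%), beside 0.712%. The regions with it then had signals of 415, 190.2 and 91.0, and regions of 283, 146 and 116 had none. Around the summits of each replicate's own list, the members with CACGTG within 50 bp differed. They were acly-1 and atgl-1 in replicate 1 and acly-1 and fat-4 in replicate 2. The site lay at −7 bp from the summit in the acly-1 exon and +7 bp in fat-4, +43 bp at atgl-1, −80 bp at dgat-2, +81 bp at lipl-2 and +79 bp in the upstream acly-1 region, on the plus strand.

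Within 50 bp, CACATG or its reverse complement CATGTG stood in 3 of the 9 member regions, both acly-1 regions and that of fat-4, beside 13.6% of all regions and 4.34% of the flanking windows. CACGTG, its own reverse complement, stood in 16.2% of all regions, 2.17% of the flanking windows and 2.57% of all ranked candidates. Median signal over all regions was 112 with CACGTG within 50 bp (157 regions) and 79.1 without it (811 regions). Over the member regions it was 190.2 with it (91.0 to 415, 3 regions) and 95.4 without it (69.6 to 283, 6 regions), and these ranges overlap.

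Pairs of these hexamers were counted by the bases between them, a count chosen after values had been seen. CACGTG or CACATG, on either strand and with at most 25 bp between, formed a pair within 100 bp of the summit in 60 of the 968 regions (6.20%) and in 10 of the 1936 flanking windows (0.517%). A pair 5 bp apart stood in 27 regions (2.79%) and 2 windows (0.103%), and the regions of acly-1 and fat-4 were among the 27. In fat-4 the second hexamer overlaps a further CACATG, which forms a pair 3 bp apart with the same CACGTG, a spacing found in 4 regions (0.413%) and 1 window (0.0517%).

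**Figure D5:**
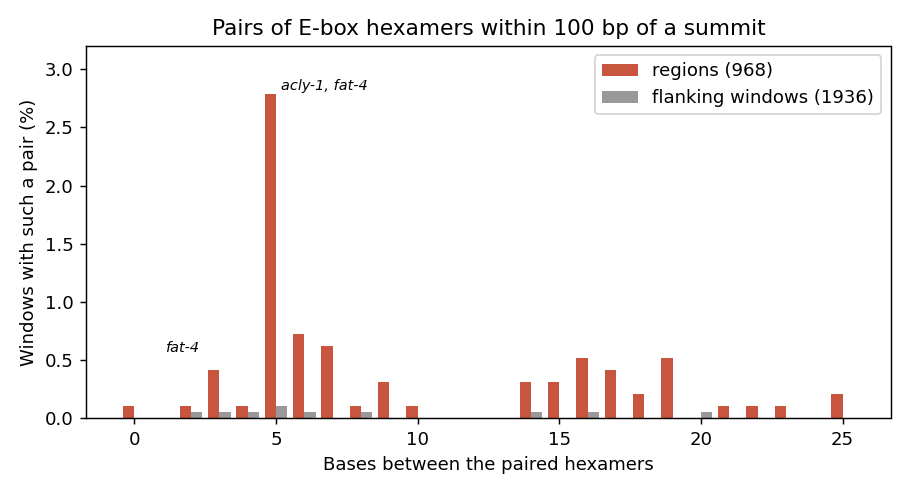
Bars give the percentage of the 968 regions and of the 1936 flanking windows that hold a pair of the 2 E-box hexamers within 100 bp of the centre, by the number of bases between them, 0 to 25. The bar at 5 bp is the tallest at 2.79% and includes acly-1 and fat-4; the flanking windows reach 0.103%.

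Most E-boxes at the lipid genes, as at the other genes, lay away from any region. The gene bodies and 2000 bp flanks of the 5' ends held 47 distinct CACGTG sites, at 22 of the 34 members (64.7%), beside 55.8% of the other genes, or 0.235 per kb beside 0.184. Of the 47 sites, 7 lay within 100 bp of a summit and 40 did not. Wholly within 50 bp of a summit lay 3 of the 47 (6.38%), beside 170 of 20718 sites of the other genes (0.821%). The acly-1 site placed 48 bp from a summit runs past that window and is not among the 3. Of the 22 members with a site, 7 had a region (31.8%), beside 668 of 11130 other genes with a site. Of the 12 members without a site 1 had a region (8.33%), beside 3.53%.

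E-boxes next to the members' 5' ends had no region over them. From 500 bp before to 100 bp after the 5' end, a window chosen after seeing the data, 7 members (20.6%) held 8 CACGTG sites, beside 10.5% of the other genes. None of the 8 lay within 100 bp of a summit, whereas 51 of 2318 sites (2.20%) of the other genes did, and with 8 sites these shares do not set the members apart. They lay at acs-2, elo-8, lipl-1, lipl-2, lipl-3 and lipl-5, with 2 at fat-1. The strongest candidate within 100 bp of any of them was 54.4 (IDR 0.117), at the lipl-2 site at −37 bp from the 5' end. Sites with no whole-experiment candidate within 100 bp stood at elo-8, lipl-1, lipl-3 and, at −126 bp from the 5' end, at fat-1. A pair of these sites is printed to set beside the bound ones, with 10 bp of context, from IV:13315506-13315531 (fat-1) and V:9791518-9791543 (lipl-2), plus strand.
fat-1 promoter: tggcttacacCACGTGaagttacgca
lipl-2 promoter: aatacttcgaCACGTGtttcatatat

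Neighbouring parts of lipid metabolism were counted by the same rule. Of 103 related genes found in the annotation, 12 had a region in the whole-experiment list (11.7%), beside the 4.91% given above. There were 2 of 20 other acyl-CoA synthetase genes (acs-4 and acs-11), 4 of 31 genes of beta-oxidation (acdh-10, cpt-2, ech-1.2 and hacd-1) and 2 of 26 genes of glycerolipid and phosphatidylcholine synthesis (acl-14 and gpdh-2). Of regulators of lipid metabolism 4 of 15 had one (cbp-1, hlh-30, nhr-68 and skn-1), and none of 3 other lysosomal lipase genes or 8 other lipid-binding protein genes did.

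Of the 103 related genes, 4 had a region in both replicates' lists, beside 1.54% of the genes outside the 34 lipid genes. The strongest was at cbp-1, which encodes a CBP/p300 acetyltransferase, at −863 bp from the 5' end, with a signal of 202 and with 110 and 93.0 in the replicates. hacd-1, a hydroxyacyl-CoA dehydrogenase gene, had 117, with 62.6 and 48.3. nhr-68, a nuclear hormone receptor gene of the propionate response, had 112, with 51.8 and 62.4, and gpdh-2, a glycerol-3-phosphate dehydrogenase gene, had 84.6, with 38.1 and 46.1. The regions of nhr-68 and gpdh-2 held CACGTG within 50 bp of the summit. All 4 signals lay below the 283 of the weaker acly-1 region, but the 202 at cbp-1 lay above the 190.2 of fat-4, the strongest member region outside acly-1.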

How the data were processed

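MXL-2 ChIP-seq of 2 biological replicates of 1 group was available as the authors' deposited peak lists on ce11, per the labels. Neither the aligner nor the peak caller is named in the sources used here. The deposited signal is the enrichment on the peak caller's scale, set for each list. The deposited −log10 values of the ranked lists give the IDR. Every line of a thresholded list lay at an IDR of 0.01 or lower, and some candidates past it were missing. Per the deposited file records, the lists were made from filtered alignments of 1 replicate or of both.

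Overlapping lines were joined, keeping the strongest summit (Python 3.11.15, numpy 2.4.6, pandas 2.3.3, scipy 1.17.1). Genes came from Ensembl release 115, in which the 5' end is the annotated start, and sequence from the RefSeq assembly WBcel235, which is ce11. E-boxes were searched on both strands. Coordinates count from 1. Depth is unknown, and exact (Clopper-Pearson) 95% intervals cover counting error only. The code that joins regions, finds overlaps and gives regions to genes was tested on made-up regions. Peak calling itself was not tested. The members, the lists and the tests were chosen with earlier results of these data known. Values in every list are given for members with a region, and of the other members the 5 with the lowest replicate IDR are named. With 1 group there was no test between groups. Alternatives were other lists, distances, windows and IDR limits, and leaving out each replicate.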

Additional observations from a re-analysis of the deposited data

How the results depend on the processing

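The count of 8 lipid genes with a region stood beside 4.91% of the other genes, and the share of the other genes moved too. The count fell to 5 among the 50% of regions of higher signal (other genes 495, 2.48%). It was 4 among regions in both replicates' lists (303, 1.52%). With 500 bp in place of 2000 bp it was 3 (588, 2.95%), and with 1000 bp it was 4 (723, 3.63%). In gene bodies only it was 3 (362, 1.82%). When each region went to the nearest 5' end only it was 5 (629, 3.15%), which drops dgat-2, lipl-2 and pod-2. With 5000 bp it was 10, and the other genes rose from 979 to 1790 (8.98%). Leaving out replicate 1 gave 4 lipid genes and 472 others (2.37%), and leaving out replicate 2 gave 6 and 459 (2.30%). In the replicate 1 list, 1000 bp left 3 lipid genes of 6. The 3 lipid genes with CACGTG within 50 bp, beside 0.712% of the other genes, became 5 within 100 bp, beside 1.02%. They were also 5 in the whole region. No share of the other genes was taken for the whole region or for 1000 bp in the replicate 1 list. The remaining counts stayed within 1.5 times, including 7 without regions at noncoding RNA genes, beside 3.48% of the other genes. No paired analysis was possible because the samples form 1 group. The per-replicate signals of the conservative ranked list were not run. Unknown depth limits what a missing region means.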
